A study of Homo sapiens with 4 samples.

Results

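NEAT1 and MALAT1 are long noncoding RNAs that stay in the nucleus and are encoded next to each other on human chromosome 11. Their RNA 3′ ends were read out here in the embryonic kidney line HEK293 by A-seq, which sequences the last stretch of a transcript before its poly(A) tail. The 2 genes were taken as 3 windows on the plus strand of chromosome 11, on hg19 (GRCh37), and the end of the short form of NEAT1 was kept apart from the rest of that gene. The windows ran from 65190000 to 65195000 (short-form end of NEAT1), from 65195001 to 65214000 (rest of NEAT1) and from 65265000 to 65275000 (MALAT1). They held 580 of the 1749181 positions at which any library had a read, with 148, 280 and 152 positions in the same order. No annotation of hg19 was used here, so exon and transcript ends were not looked up. In the RefSeq gene table of a later genome build, MIR612 is listed after the start of NEAT1, and the antisense RNA TALAM1 and the small RNA MASCRNA are listed after the start of MALAT1.

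The study had 4 groups with 1 library each. One group of cells received no siRNA and is called siRNA-free below, one received a scrambled control siRNA, and the remaining groups were depleted by siRNA of CstF-64, a subunit of the cleavage stimulation factor, or of CF Im 68, a subunit of cleavage factor I. Harvest followed 3 days after siRNA. The question behind the depletions was which poly(A) sites cells use when either factor is scarce. No group had a second library, so the spread between cultures is unknown, no test of a condition was possible, and each interval below is a 95% interval that covers counting error only (exact, apart from those of differences between shares). Molecular identifiers are not mentioned in the sources used here, so that copies of 1 fragment may count as several reads. Both control libraries are given throughout, since the gap between them is the closest measure of how far 2 libraries without a depletion differ. That gap includes any effect of the control siRNA.

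NEAT1 is transcribed from one promoter into a short and a long form. The short form is cleaved and polyadenylated at a conventional poly(A) site, while the long form passes over that site and is needed to build paraspeckles, nuclear bodies that hold RNA-binding proteins. The long form and MALAT1, an RNA of nuclear speckles, receive their 3′ ends without conventional polyadenylation: RNase P cuts upstream of a transfer RNA-like structure, and the new end is protected by a triple helix that uses an A-rich stretch encoded in the genome. Cleavage factor I is known to favour the poly(A) site of the short form over the long form. CstF-64 binds U- and GU-rich RNA downstream of the cleavage position.

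The sequences below are those of the agents used, copied from the sample descriptions, and they show how cells were treated and how ends were captured. The siRNAs are printed without their undefined leading bases. In the adapter, capitals mark the run of 6 A that the reverse transcription primer copies from the start of the tail. An encoded A-rich stretch can pair with such a primer as well, and such reads could not be set apart here.
CstF-64 siRNA: ccugaaugggcgcgaauuc
CF Im 68 siRNA: gaccgagauuacauggaua
3′ adapter: AAAAAAtggaattctcgggtgccaagg

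The libraries held 7343112 to 15806975 reads, fewest upon CstF-64 depletion and most in siRNA-free cells. Mitochondrial reads made up 1.17 to 1.79% in 3 libraries and 3.75% upon CF Im 68 depletion, and their part in the results was not tested beyond leaving them out of the scaling. Scaling with TMM factors in place of total reads moved the median log2 ratio of 17879 loci from −0.19 to −0.03 for CstF-64 against control siRNA, and from 0.13 to 0.00 for CF Im 68 siRNA against no siRNA. A locus is a most used 3′ end site with all sites of its strand within 10 kb. Depletion of the proteins was checked by Western blot, per the labels' protocols. The transcripts of the siRNA targets were not analysed here.

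Summed over its window, the short-form end of NEAT1 had fewer reads per library total upon either depletion than in either control library. It had 33.3 RPM (reads scaled to a library total of 1000000) in siRNA-free cells (526 reads, interval 30.5 to 36.2) and 43.0 RPM with control siRNA (578 reads, 39.6 to 46.6). Upon CstF-64 depletion it had 25.2 RPM (185 reads, 21.7 to 29.1), and upon CF Im 68 depletion 23.3 RPM (298 reads, 20.7 to 26.1). The intervals of the depleted libraries lay below those of both controls, and the depleted libraries did not differ from each other beyond counting error, with a ratio of 0.925 (0.767 to 1.12). Upon CF Im 68 depletion the level was 1.85-fold lower than with control siRNA (1.60 to 2.13) and 1.43-fold lower than in siRNA-free cells (1.24 to 1.65). Upon CstF-64 depletion it was 1.71-fold (1.44 to 2.02) and 1.32-fold (1.12 to 1.57) lower. The controls differed by 1.29-fold (1.15 to 1.46), close to the smaller of these differences. At the main site of the window, described below, the CstF-64 library was within counting error of no siRNA, at 1.09-fold lower (0.905 to 1.32). A smaller site of the window, at 65193887, had 5.76 RPM in siRNA-free cells and 0.817 RPM upon CstF-64 depletion. In a bulk library, fewer cells with an RNA and less of it per cell cannot be told apart.

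The rest of NEAT1 went the other way upon CF Im 68 depletion. It had 9.05 RPM in siRNA-free cells (143 reads, 7.62 to 10.7), 23.9 RPM with control siRNA (321 reads, 21.3 to 26.6), 10.6 RPM upon CstF-64 depletion (78 reads, 8.40 to 13.3) and 46.7 RPM upon CF Im 68 depletion (597 reads, 43.0 to 50.6). The CF Im 68 library was the highest, the control siRNA library came next, and the other two overlapped at a ratio of CstF-64 to no siRNA of 1.17 (0.879 to 1.56). The level upon CF Im 68 depletion was 1.95 times that with control siRNA (1.70 to 2.25) and 5.16 times that in siRNA-free cells (4.29 to 6.24). The control libraries themselves were 2.64-fold apart in this window (2.16 to 3.24). Upon CstF-64 depletion the level was 2.25-fold lower than with control siRNA and higher than in siRNA-free cells, so it had no common direction.

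MALAT1 was lower upon either depletion. It had 16.9 RPM in siRNA-free cells (267 reads, 14.9 to 19.0), 24.5 RPM with control siRNA (329 reads, 21.9 to 27.3), 7.76 RPM upon CstF-64 depletion (57 reads, 5.88 to 10.1) and 11.3 RPM upon CF Im 68 depletion (145 reads, 9.56 to 13.3). Both depleted libraries lay below both controls without overlap, and CstF-64 siRNA gave the lowest value. The level upon CstF-64 depletion was 3.15-fold lower than with control siRNA (2.37 to 4.25) and 2.18-fold lower than in siRNA-free cells (1.63 to 2.95). Upon CF Im 68 depletion it was 2.16-fold (1.77 to 2.64) and 1.49-fold (1.21 to 1.84) lower. The controls were 1.45-fold apart (1.23 to 1.71).

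**Figure D1:**
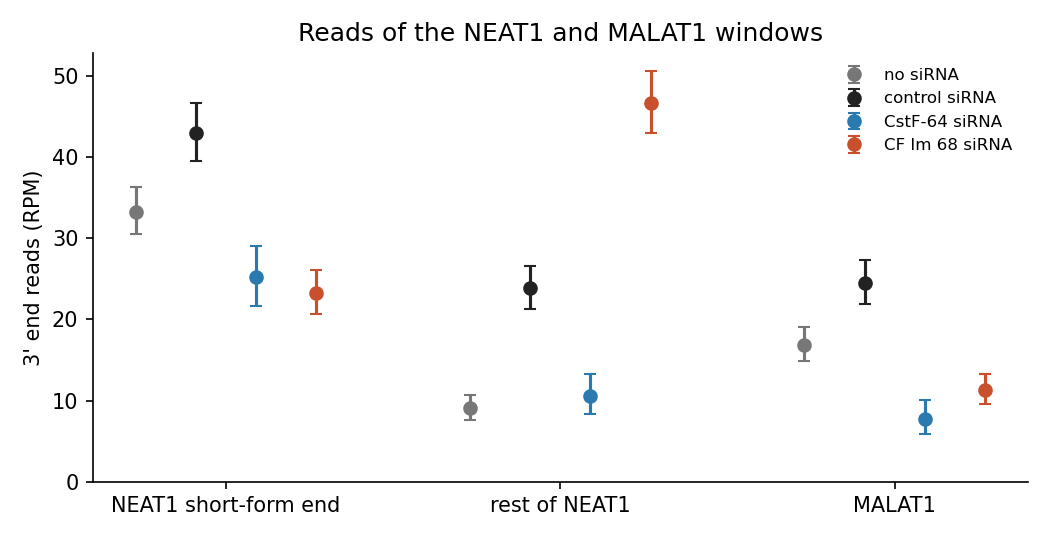
3′ end reads in RPM (vertical axis) for the 3 windows (horizontal axis) in the 4 libraries, 1 point per library, with exact 95% Poisson intervals as bars. The window totals of the short-form end and MALAT1 are lower in both depleted libraries than in both controls. The rest of NEAT1 is highest, at 46.7 RPM, upon CF Im 68 depletion.

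Set against all loci, only 1 of these window totals passed a 2-fold rule, that of MALAT1 upon CstF-64 depletion. Counting a locus as called when log2 of RPM plus a pseudocount of 1 was at least 2-fold away from both controls in one direction, 0 of the 3 windows were called upon CF Im 68 depletion, beside 5.02% of 17879 loci called higher and 1.86% called lower. Upon CstF-64 depletion 1 of 3 windows, MALAT1, was called lower, beside 6.11% of loci called lower and 1.82% called higher. That call rested on a log2 ratio of −1.03 to the no siRNA library, which became −0.99 with TMM factors and ended the call. Upon CF Im 68 depletion, 5.68% of loci were as far above their nearer control as the rest of NEAT1. As far below theirs were 9.17% of loci for the short-form end and 8.25% for MALAT1. Upon CstF-64 depletion the share as far below was 5.65% for MALAT1 and 25.0% for the short-form end. Control siRNA was at least 2-fold higher or lower than no siRNA at 7.15% of loci, and 1 of 3 windows, the rest of NEAT1, was that far apart. Neither RNA stood out by its level of captured ends. With control siRNA 20.0% of loci had more reads than the short-form end, 30.2% more than the rest of NEAT1 and 29.8% more than MALAT1, and upon CstF-64 depletion 47.7% of loci had more than MALAT1. Windows count all their reads, while loci count only reads at sites with a mean of at least 1 RPM, which favours the windows. With control siRNA 12.6, 45.5 and 38.6% of window reads, in the order above, lay outside the sites described below.

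Within NEAT1, a smaller share of reads lay at the short-form end upon CF Im 68 depletion, while the gene's total was close to that of control siRNA. The total of both NEAT1 windows was 42.3 RPM in siRNA-free cells, 66.9 RPM with control siRNA, 35.8 RPM upon CstF-64 depletion and 70.0 RPM upon CF Im 68 depletion. The short-form end took 78.6% of NEAT1 reads in siRNA-free cells (exact Clopper-Pearson interval 75.3 to 81.7), 64.3% with control siRNA (61.1 to 67.4), 70.3% upon CstF-64 depletion (64.4 to 75.8) and 33.3% upon CF Im 68 depletion (30.2 to 36.5). Lowest was the CF Im 68 library, which overlapped none of the others, 31.0 points below control siRNA (interval of the difference −35.4 to −26.5) and 45.3 points below no siRNA (−49.7 to −40.7). The siRNA-free library was the highest, 14.3 points above control siRNA. Upon CstF-64 depletion the share lay between the controls.

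Counted over all site pairs of the genome, few had so much lower a share at their 5′ site upon CF Im 68 depletion. Pairs of the 2 most used sites of a locus, at most 10 kb to either side of its main site, served as the comparison, which was added after the NEAT1 values were seen. Their share at the 5′ site had a median difference of 4.84 points above control siRNA and 5.23 points above no siRNA. It was at least 10 points lower than in both controls at 3% of 4793 pairs. A difference as far down as that of the NEAT1 windows was found at 0.271% of pairs against control siRNA and at 0.104% against no siRNA. Pairs with a control share under the size of that difference could not fall so far and were still counted. Pairs also count reads of 2 sites, while the NEAT1 share counts all reads of its windows. How rare the NEAT1 difference is among pairs able to reach it was not tested. The short-form window and the rest of NEAT1 are not themselves such a pair, because they reach further apart than that. Sites within the short-form window were not removed from the pairs. Upon CstF-64 depletion 5.42% of pairs were at least 10 points lower than in both controls, and NEAT1 was not, at 6.05 points above control siRNA (−0.649 to 12.4) and 8.28 points below no siRNA.

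**Figure D2:**
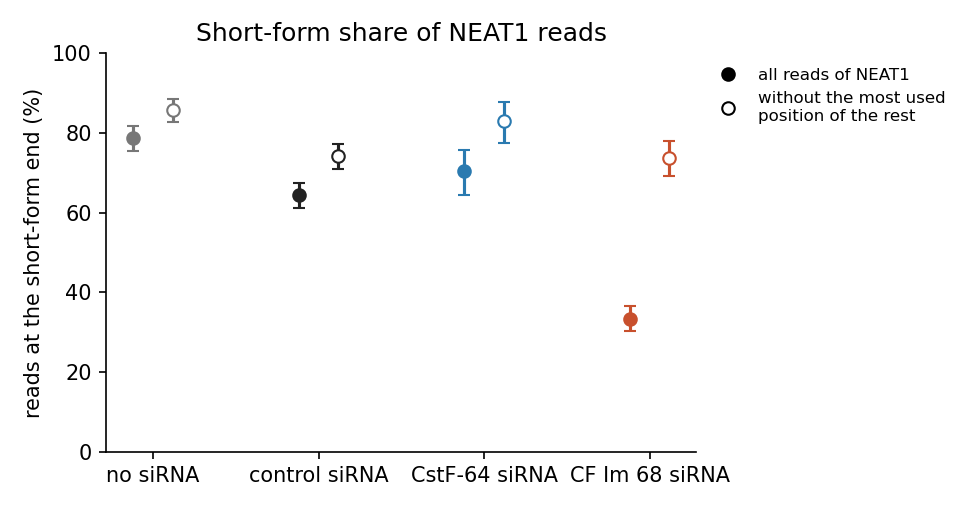
Share of NEAT1 reads at the short-form end in percent (vertical axis) for the 4 libraries (horizontal axis), with exact Clopper-Pearson 95% intervals as bars. Filled points use all NEAT1 reads and open points leave out the most used position of the rest of the gene: the CF Im 68 library goes from 33.3% to 73.8%, next to control siRNA at 74.2% and below the siRNA-free library at 85.8%.

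The excess of the CF Im 68 library over control siRNA in the rest of NEAT1 lay at a single position. Positions were grouped into sites by letting the most used position take all others within 25 nt, and 2 sites of this window had a mean of at least 1 RPM. The larger lay at 65207942, 13945 nt downstream of the main short-form position. It had 3.61 RPM in siRNA-free cells (57 reads, 2.73 to 4.67), 9.00 RPM with control siRNA (121 reads, 7.47 to 10.8), 5.45 RPM upon CstF-64 depletion (40 reads, 3.89 to 7.42) and 38.6 RPM upon CF Im 68 depletion (494 reads, 35.3 to 42.2). The CF Im 68 library was far above the others, 4.29 times control siRNA (3.51 to 5.28) and 10.7 times no siRNA (8.13 to 14.3), and it was higher here than at the short-form end of the same library. This site was the 1 called higher among the 9 sites described upon CF Im 68 depletion, beside 8.57% of all 33723 sites called higher and 1.73% called lower. Of all sites, 2.32% were as far above their nearer control. All of those sites had a mean of at least 1 RPM, while only 2 of the 3 sites described per window did.

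Position 65207942 held 98.2 to 100% of the reads of its site in every library. Among 6867 sites with at least 100 reads in every library, the share of sites with at least 95% of reads on 1 position was 7.16 to 9.99% over the libraries. The NEAT1 site had fewer than 100 reads in 2 libraries and is not among them. The authors' running numbers of positions skip some numbers, which stand for positions that the files as used here do not list. Within 500 nt of 65207942, 5 numbers were skipped in siRNA-free cells, 4 with control siRNA, 0 upon CstF-64 depletion and 8 upon CF Im 68 depletion, and 2, 1, 0 and 2 of these fell within the 20 nt that follow the site. Those positions and their reads were not analysed here, so the sharpness of the site describes the listed positions, and its reads may not be complete. The short-form end had 0 skipped numbers in every library, and MALAT1 had 0 to 4. As a share of numbers, 4.61 to 14.5% were skipped in the rest of NEAT1 and 0 to 6.67% in MALAT1. In the CstF-64 library the share was higher in MALAT1, at 6.67% against 5%. Whether the genome encodes A residues at 65207942 was not tested, since no hg19 sequence was used here.

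Without that position, the rest of NEAT1 had 5.50 RPM in siRNA-free cells, 15.0 RPM with control siRNA, 5.17 RPM upon CstF-64 depletion and 8.29 RPM upon CF Im 68 depletion. On these values the CF Im 68 library lay between the controls, at 0.554 times control siRNA (0.434 to 0.705) and 1.51 times no siRNA (1.12 to 2.02). With the position left out of the rest of the gene, which was chosen after its values were seen, the short-form share was 85.8% in siRNA-free cells (82.8 to 88.5), 74.2% with control siRNA (71.0 to 77.2), 83.0% upon CstF-64 depletion (77.4 to 87.7) and 73.8% upon CF Im 68 depletion (69.2 to 78.0). That left the CF Im 68 library different from control siRNA by −0.44 points (−5.93 to 4.88) and from no siRNA by −12.0 points (−17.3 to −6.85). Control siRNA differed from no siRNA by −11.6 points (−15.8 to −7.33).

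Another site of the rest of NEAT1, at 65200470, 6473 nt downstream of the main short-form position, was lower upon either depletion. It had 40 reads (2.53 RPM) in siRNA-free cells, 45 reads (3.35 RPM) with control siRNA, 2 reads (0.272 RPM) upon CstF-64 depletion and 14 reads (1.09 RPM) upon CF Im 68 depletion. Relative to control siRNA the level upon CstF-64 depletion was 0.0814 (0.00956 to 0.311), and relative to no siRNA it was 0.108 (0.0126 to 0.415). It was the 1 site of 9 called lower upon CstF-64 depletion, beside 5.07% of all sites called lower and 1.65% called higher. Only 2 of the 3 sites described per window passed the mean of 1 RPM that all sites passed. The others were too low in both controls to be called lower with the pseudocount. Upon CF Im 68 depletion it was 3.06-fold lower than control siRNA (1.65 to 6.03) and 2.31-fold lower than no siRNA (1.23 to 4.60), and with the pseudocount the second of these was under 2-fold. The 2 internal sites of NEAT1 thus differed in opposite directions in the CF Im 68 library.

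The most 3′ of the sites described in the rest of NEAT1, at 65213008, was thinly covered. It had 2 reads in siRNA-free cells, 9 with control siRNA, 0 upon CstF-64 depletion and 13 upon CF Im 68 depletion. At the depth of the CstF-64 library, a count of 0 allows up to 0.409 RPM (3 reads), and the exact interval used for the other levels reaches 0.502 RPM. Upon CF Im 68 depletion the site was at 1.52 times control siRNA (0.600 to 4.02), within counting error, and at 8.03 times no siRNA (1.82 to 73.3), while control siRNA was at 5.29 times no siRNA (1.10 to 50.3). The CstF-64 library with its 0 reads was below control siRNA, with 0.928 as the upper end of the ratio's interval, and could not be told from no siRNA.

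**Figure D3:**
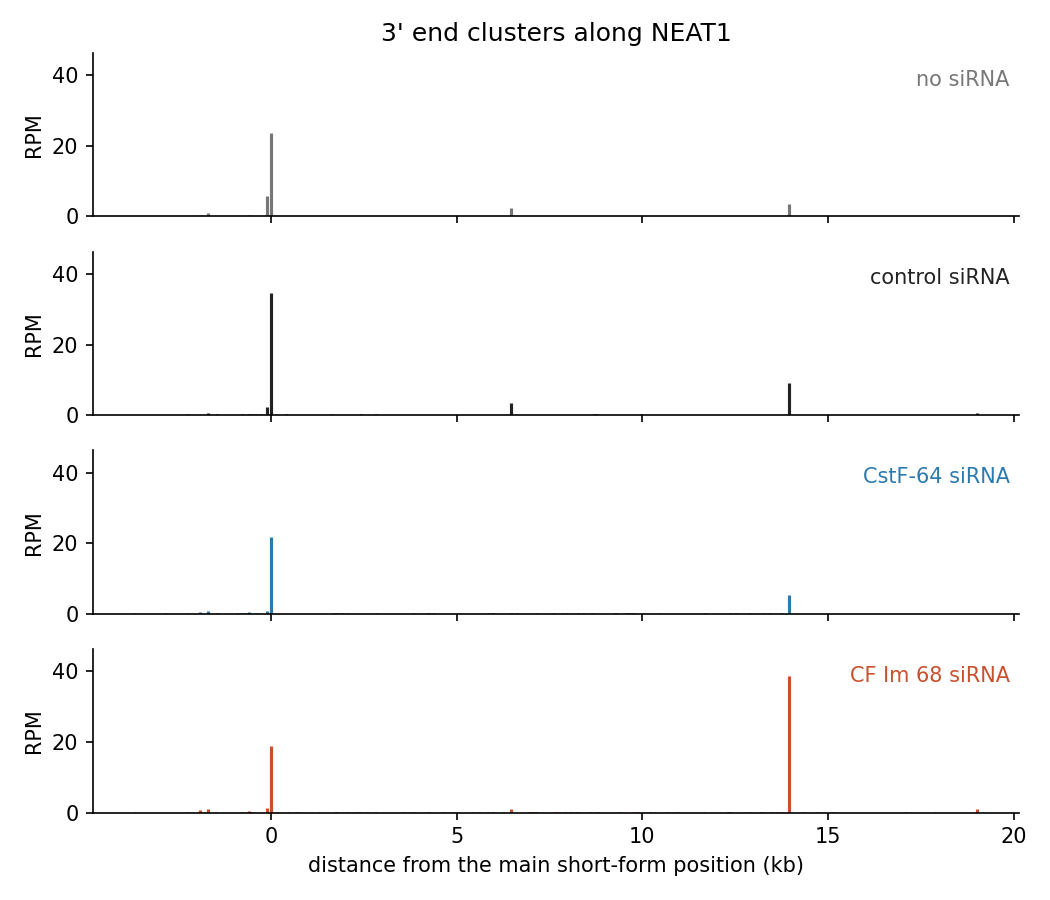
RPM of every 3′ end site along NEAT1 (vertical axis), 1 panel per library, against the distance in kb from the main short-form position (horizontal axis, downstream to the right). The CF Im 68 library shows its highest line, 38.6 RPM, 13945 nt downstream, where the other libraries have 3.61 to 9.00 RPM.

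The short-form end itself was spread over several neighbouring positions. Its main site, at 65193997, had 23.7 RPM in siRNA-free cells (374 reads), 34.6 RPM with control siRNA (465 reads), 21.7 RPM upon CstF-64 depletion (159 reads) and 18.9 RPM upon CF Im 68 depletion (242 reads). The CF Im 68 library was 1.83-fold below control siRNA (1.56 to 2.14) and 1.25-fold below no siRNA (1.06 to 1.48). The CstF-64 library was 1.60-fold below control siRNA (1.33 to 1.92) and within counting error of no siRNA, at 1.09-fold (0.905 to 1.32).

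Reads of the main site fell mostly on 65193997, 65194000 and 65194002 in every library. The first of these held 68.4% of the site's reads in siRNA-free cells (63.5 to 73.1), 65.4% with control siRNA (60.9 to 69.7), 61.0% upon CstF-64 depletion (53.0 to 68.6) and 57.4% upon CF Im 68 depletion (50.9 to 63.7). The value of the CF Im 68 library was the lowest, and its interval overlapped those of all 3 other libraries, that of no siRNA only at its edge. Whether these shares differ beyond counting error was not computed. The median over the 6867 well covered sites was 65.9 to 69.2%. The position 3 nt downstream had 72, 92, 41 and 61 reads in the siRNA-free, control, CstF-64 and CF Im 68 libraries, and the position 5 nt downstream had 24, 26, 15 and 20.

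A smaller site 110 nt upstream, at 65193887, was most used in siRNA-free cells. It had 91 reads (5.76 RPM) there, 30 reads (2.23 RPM) with control siRNA, 6 reads (0.817 RPM) upon CstF-64 depletion and 16 reads (1.25 RPM) upon CF Im 68 depletion. It held 17.3% of the window's reads in siRNA-free cells (14.2 to 20.8) and 3.24 to 5.37% in the other libraries, so that the siRNA-free library stood apart from the others. Upon CstF-64 depletion the site was 2.73-fold below control siRNA (1.12 to 8.03) and 7.05-fold below no siRNA (3.11 to 19.7), and with the pseudocount the first of these was under 2-fold. Upon CF Im 68 depletion it was within counting error of control siRNA, at 1.78-fold below (0.942 to 3.50), and 4.60-fold below no siRNA (2.69 to 8.39). The controls thus differed in opposite directions at neighbouring sites, with 2.58-fold less with control siRNA here (1.69 to 4.04) and 1.46-fold more at the main site (1.27 to 1.68). The site at 65192291 had 15, 10, 5 and 12 reads in the order used above, or 0.681 to 0.949 RPM, with no difference beyond counting error.

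MALAT1 was lower upon CF Im 68 depletion mainly at its internal positions, while its most 3′ site was within counting error of both controls. This site was the most used over the libraries together, although with control siRNA the internal site described next had more reads. That site, at 65273938, had 6.71 RPM in siRNA-free cells (106 reads, 5.49 to 8.11), 6.40 RPM with control siRNA (86 reads, 5.12 to 7.90), 3.68 RPM upon CstF-64 depletion (27 reads, 2.42 to 5.35) and 5.71 RPM upon CF Im 68 depletion (73 reads, 4.47 to 7.17). The controls overlapped, and so did the CF Im 68 library, at 0.892 times control siRNA (0.644 to 1.23) and 0.851 times no siRNA (0.623 to 1.16). The CstF-64 library was 1.74-fold below control siRNA (1.12 to 2.79) and 1.82-fold below no siRNA (1.19 to 2.90). Its most used position held 87.7 to 93.4% of the site's reads.

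The internal site of MALAT1 at 65267433 had 4.62 RPM in siRNA-free cells (73 reads), 7.96 RPM with control siRNA (107 reads), 2.45 RPM upon CstF-64 depletion (18 reads) and 3.44 RPM upon CF Im 68 depletion (44 reads). Upon CstF-64 depletion it was 3.25-fold below control siRNA (1.96 to 5.69) and 1.88-fold below no siRNA (1.11 to 3.35). Upon CF Im 68 depletion it was 2.31-fold below control siRNA (1.61 to 3.37), and the ratio to no siRNA of 0.745 (0.500 to 1.10) was within counting error. A weaker internal site at 65271101 had 8, 9, 2 and 9 reads in the same order.

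The share of MALAT1 reads at the most 3′ site was highest in the depleted libraries. It was 39.7% in siRNA-free cells (33.8 to 45.8), 26.1% with control siRNA (21.5 to 31.2), 47.4% upon CstF-64 depletion (34.0 to 61.0) and 50.3% upon CF Im 68 depletion (41.9 to 58.7). Control siRNA gave the lowest share, and the intervals of both depleted libraries overlapped that of no siRNA. Such overlap does not show that the shares were alike, and intervals of these differences were not computed.

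**Figure D4:**
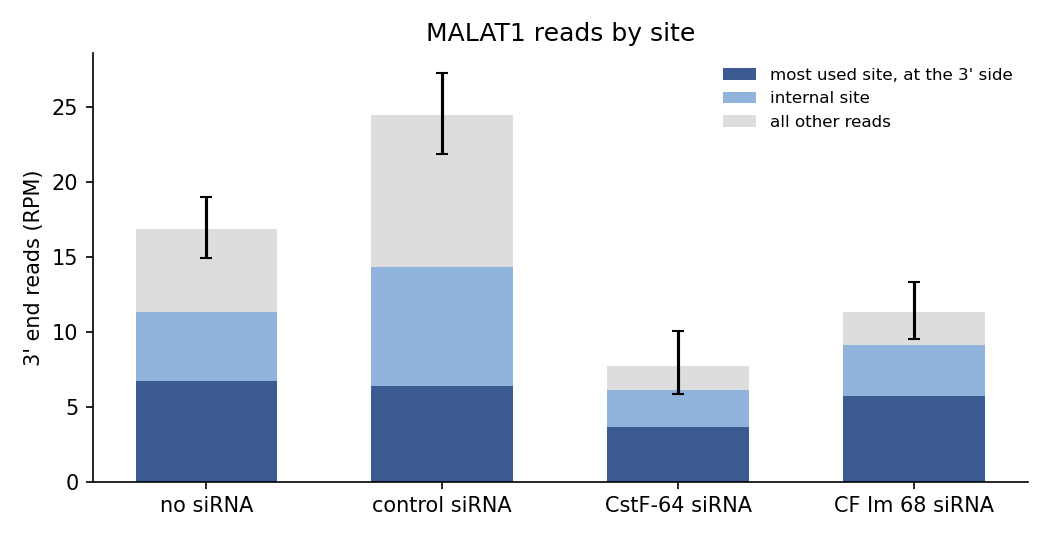
MALAT1 reads in RPM (vertical axis) for the 4 libraries (horizontal axis), stacked by the site most used over the libraries together, the internal site and all other reads, with the exact 95% Poisson interval of the window total as a bar. The lowest segment varies from 3.68 to 6.71 RPM, while the total varies from 7.76 to 24.5 RPM.

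Both genes had many scattered positions with 1 or a few reads, and these were most frequent with control siRNA. Outside the 3 sites described per window, NEAT1 and MALAT1 together had 126 positions in siRNA-free cells, 296 with control siRNA, 55 upon CstF-64 depletion and 94 upon CF Im 68 depletion. Their reads came to 10.8, 25.7, 8.31 and 9.61 RPM in the same order. Over the whole table the share of reads outside sites was 5.82, 7.69, 7.01 and 10.5%. Sites were kept on the autosomes and chromosome X only, so these shares include all mitochondrial reads. Those made up 1.17, 1.53, 1.79 and 3.75% of reads in the same order. The largest share, in the CF Im 68 library, is thus not a measure of scattered reads alone.

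In MALAT1 the scattered reads had 5.06 RPM in siRNA-free cells (4.01 to 6.30), 9.45 RPM with control siRNA (7.88 to 11.2), 1.36 RPM upon CstF-64 depletion (0.653 to 2.50) and 1.49 RPM upon CF Im 68 depletion (0.894 to 2.32). Both depleted libraries lay below both controls without overlap. In the rest of NEAT1 the values were 2.78 RPM (2.02 to 3.74), 10.9 RPM (9.17 to 12.8), 4.90 RPM (3.43 to 6.79) and 5.94 RPM (4.68 to 7.44). There the control siRNA library stood above the other three, and the depleted libraries were not below no siRNA.

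**Figure D5:**
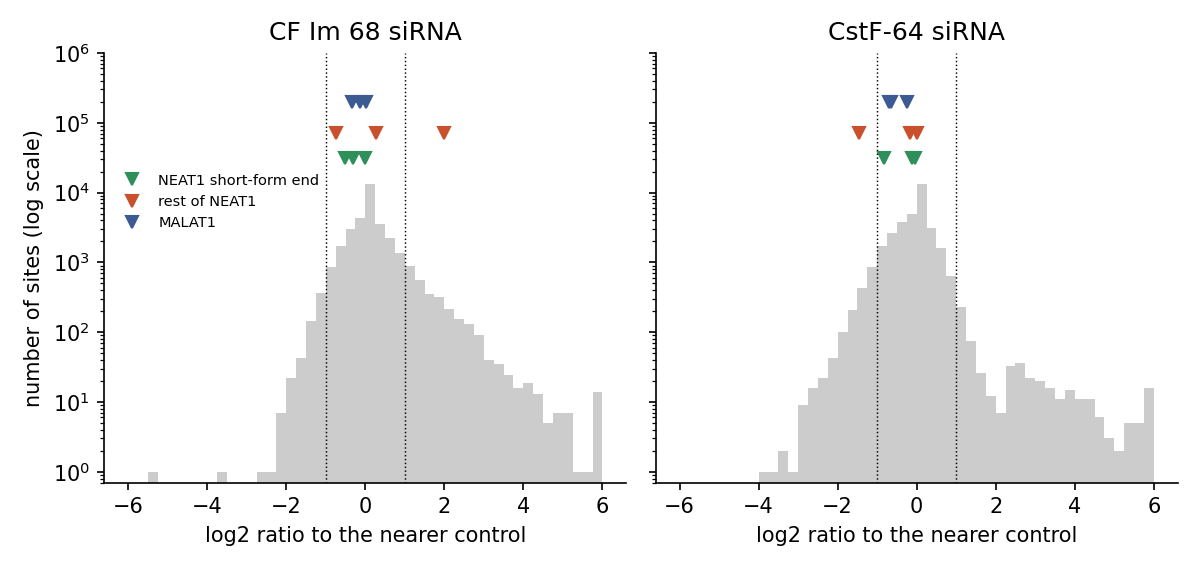
Number of sites (vertical axis, log scale) by the log2 ratio to the nearer control (horizontal axis) for 33723 sites upon CF Im 68 depletion and CstF-64 siRNA, with sites whose ratios to the controls differ in direction set to 0 and the outermost bars holding sites beyond the axis. Triangles mark the 9 sites of the windows, some of them under the mean of 1 RPM that the sites in the bars passed. Dotted lines mark 2-fold: 1 NEAT1 site lies above 2-fold upon CF Im 68 depletion and another lies below it upon CstF-64 depletion.

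Likeness of pattern was measured as the Euclidean distance of log2 of RPM plus 1, centred over the 4 libraries, over 4698 loci with at least 20 RPM in every library. The locus nearest to the short-form end, at a distance of 0.0747, was at 118867603 on the plus strand of chromosome 2, with 34.2 RPM in siRNA-free cells, 41.7 RPM with control siRNA, 26.0 RPM upon CstF-64 depletion and 23.0 RPM upon CF Im 68 depletion. Next came 85198364 on the minus strand of chromosome 15 (0.0840) and 26055935 on the minus strand of chromosome 6 (0.0862). For MALAT1 the nearest were 48366751 on the minus strand of chromosome 12 (0.172), 118920469 on the minus strand of chromosome X (0.203) and 3052908 on the minus strand of chromosome 19 (0.244). For the rest of NEAT1 no locus of this set was as near. The rest of NEAT1 was itself under 20 RPM in siRNA-free cells (9.05) and upon CstF-64 depletion (10.6). MALAT1 was under it in every library but control siRNA. Loci with such low levels were not searched, so how rare either pattern is was not tested. The closest were 155101944 on the plus strand of chromosome 7 (0.446), with 23.9, 71.6, 42.9 and 132 RPM in the order above, 48602005 on the plus strand of chromosome 19 (0.522) and 43289498 on the minus strand of chromosome 5 (0.533). With 4 libraries these distances are descriptions, and all loci share the libraries' depth.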

How the data were processed

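The deposited files list, per library, read counts at single-nucleotide 3′ end positions with strand, raw and not normalized. Coordinates are those of hg19 (GRCh37), as the submitters' processing notes name it. For the aligner, for reads with several matches and for PCR copies the handling was not given in the sources used here. Skipped running numbers (10.2 to 12.2% of them per library) stand for positions that are not listed in the files as used here, for a reason not known. Groups followed the sample titles, 1 library each. Reads were summed per window and scaled to the library's total count (7343112 to 15806975). Sites were built with a radius of 25 nt, kept at a mean of 1 RPM or more on the autosomes and chromosome X (33723), and loci within 10 kb of a main site, with at least 50 reads (17879). Ratios carry exact conditional binomial intervals, levels exact Poisson intervals and shares Clopper-Pearson intervals. Intervals of differences between shares combine those of both shares. The 2-fold rule across all loci was tried on simulated counts with counting error only and the same level in both controls. Such counts cannot show how the rule behaves when libraries differ as they do here. TMM factors came from edgeR 4.0.16 (R 4.3.3), the rest from Python 3.11.15 with SciPy 1.17.1. Named were all sites of the windows that passed 1 RPM, or the 3 most used where fewer passed, and the 3 loci most alike in pattern per window. The list of paraspeckle and RNase P genes planned with the design needed an annotation of hg19 and was not used here. The genes, windows and lists were chosen with earlier results of these data known.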

Additional observations from a re-analysis of the deposited data

How the results depend on the processing

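No paired analysis was possible because each group had 1 library, and no library could be left out of a group. TMM factors and scaling by reads outside mitochondria kept every window ratio to control siRNA within its interval. With no siRNA as the reference, the ratios upon CF Im 68 depletion were 0.700 for the short-form end, 5.16 for the rest of NEAT1 and 0.671 for MALAT1, and upon CstF-64 depletion 0.757, 1.17 (reversed) and 0.460. Counting distinct positions gave, upon CF Im 68 depletion, 0.428, 0.522 (reversed) and 0.210, and upon CstF-64 depletion 0.447 for the short-form end. Positions with at least 2 reads gave 3.05 for the rest of NEAT1 and 0.570 for MALAT1 upon CF Im 68 depletion. The most used site alone gave 4.29 for the rest of NEAT1 and 0.892 for MALAT1 upon CF Im 68 depletion, and 0.605 and 0.575 upon CstF-64 depletion. Without the most used position, the rest of NEAT1 was at 0.554 (reversed) and MALAT1 at 0.336 upon CF Im 68 depletion. In the rest of NEAT1 that position held 491 of 597 reads in the CF Im 68 library and 120 of 321 with control siRNA. The short-form share upon CF Im 68 depletion differed from control siRNA by −39.2 points with positions of at least 2 reads, −4.52 points with distinct positions, −46.5 points with the most used sites and 2.32 points (reversed) without the most used position of each window. It differed by −0.44 points with that position left out of the rest of NEAT1 alone, a setting chosen after seeing the data, which left it −12.0 points from no siRNA. With all positions it was −45.3 points from no siRNA. Upon CstF-64 depletion it differed by −1.64 points with distinct positions and by −8.28 points from no siRNA, both reversed. The cause of the other moves was not tested. With a radius of 10 nt the share of the most used position was 100% for the rest of NEAT1 in each control library, and 99% in siRNA-free cells and 96.2% with control siRNA for MALAT1. A pseudocount of 0.1 RPM gave 709 loci lower upon CF Im 68 depletion, against 332, and 525 higher and 1991 lower upon CstF-64 depletion, against 325 and 1092. A minimum of 200 reads gave 475 higher upon CF Im 68 depletion, against 897, and 129 higher upon CstF-64 depletion, with fewer loci counted. Depth limits the CstF-64 library most, with 57 reads in MALAT1 and 0 to 6 reads at 5 of the 9 sites.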

Other observations

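The surroundings of the windows were nearly empty, apart from a stretch upstream of NEAT1. The opposite strand of the 3 windows held 0 to 4 reads per window and library, so that ends of antisense RNA over NEAT1 and MALAT1 were at or near the limit of detection. Between NEAT1 and MALAT1, from 65214001 to 65264999 on the plus strand, there were 23 reads in siRNA-free cells, 18 with control siRNA, 5 upon CstF-64 depletion and 11 upon CF Im 68 depletion, or 0.681 to 1.46 RPM. In the 10000 nt after MALAT1 only the control siRNA library had a read, and it had 1.

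The 10000 nt before NEAT1 on the plus strand, from 65180000 to 65189999, had 17.4 RPM in siRNA-free cells (15.4 to 19.6), 39.9 RPM with control siRNA (36.6 to 43.5), 14.0 RPM upon CstF-64 depletion (11.4 to 17.0) and 30.7 RPM upon CF Im 68 depletion (27.8 to 33.9). One position held 95 to 520 reads of this stretch, nearly all of them in each library. The control libraries were 2.30-fold apart there (1.98 to 2.66), close to their 2.64-fold gap in the rest of NEAT1. The CF Im 68 library lay between the controls in this stretch, unlike in the rest of NEAT1, where it was above both.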
